A study of Mus musculus with 11 samples.

Results

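In B16-OVA cells under control siRNA, 33 annotated genes had a mean of at least 1 FPKM after heat shock and were listed at exactly 0 in every unheated library. FPKM counts the fragments of a gene relative to transcript length and to all mapped fragments, so levels of genes of different length can be set side by side. The 33 genes were chosen from the control siRNA libraries themselves. They are the named Ensembl rows whose mean over the 2 heated control siRNA libraries was at least 1 FPKM and that were at 0 FPKM in all 3 unheated control siRNA libraries, and replication-dependent histone genes were to be left out, of which there were 0. They came from 54038 named rows, 31614 of which were at 0 in the 3 unheated control libraries. Because those values chose the genes, the levels under control siRNA are a description and no test of heat under control siRNA was made.

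B16-OVA is an ovalbumin-expressing mouse melanoma line of C57BL/6J origin. All cells were transfected, either with pooled siRNAs directed at YAP and TAZ or with a control siRNA, and heat was applied 48 h later at 45 °C for 1 h, with 6 h of recovery at 37 °C. The groups were heated YAP/TAZ siRNA (3 libraries), unheated YAP/TAZ siRNA (3), heated control siRNA (replicates 1 and 3) and unheated control siRNA (3). No replicate 2 of the heated control cells is among the 11 libraries. Whether replicates were separate cultures is not in the labels, and p-values here cover the spread among these libraries, which may be technical. A pool lowers both targets together, so effects of YAP and of TAZ cannot be told apart, and the series tests 1 cell line.

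Heat shock activates the transcription factor HSF1, which drives chaperone genes from heat shock elements, repeats of the letters GAA in alternating orientation. YAP and TAZ, encoded by Yap1 and Wwtr1, are the co-activators that the Hippo pathway restrains, and they reach DNA through TEAD factors. Some of the protein coding genes described here are known from other tissues, such as the vasopressin gene of hypothalamic neurons and the recombinase gene of developing lymphocytes. Under heat stress RNA polymerase is also known to run past the ends of some genes, so the position of each gene relative to its expressed neighbours is given with its levels. Whether this took part in the values was not tested.

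The step between low levels was sought in each library within a narrow range fixed in advance, so similar steps do not show similar depth. The smallest common step between FPKM values, scaled to a transcript of 1 kb, was 0.0260 to 0.0328 in heated YAP/TAZ libraries, 0.0242 to 0.0255 in unheated YAP/TAZ libraries, 0.0273 to 0.0293 in heated control libraries and 0.0228 to 0.0261 in unheated control libraries. Heated YAP/TAZ libraries had 21110 to 21241 named rows above 0, unheated YAP/TAZ libraries 20222 to 20507, heated control libraries 22718 to 22783 and unheated control libraries 19599 to 19954. Yap1 was at 2.26 to 2.61 FPKM after heat and 2.54 to 3.02 FPKM without it under YAP/TAZ siRNA, and at 5.96 to 10.9 FPKM after heat and 5.79 to 15.6 FPKM without it under control siRNA. Wwtr1 was at 1.40 to 1.72, 1.65 to 1.83, 5.50 to 8.47 and 5.37 to 8.20 FPKM in that order, so every YAP/TAZ library lay below every control library for both targets. The 8 melanocyte markers looked for were all at 1 FPKM or more as group means, with sums of 7341 to 8205, 8065 to 8426, 6462 to 6707 and 7239 to 7851 FPKM. None of 10 housekeeping genes was at 0 in any library, but a 0 in this table can still be a failed estimate for a single gene, so genes at 0 are called listed at 0 and no fold is given against them. In bulk RNA, fewer cells of a type and less RNA per cell cannot be told apart.

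By annotation, 15 of the 33 genes (45.5%) were protein coding, 8 (24.2%) processed pseudogenes, 5 (15.2%) long noncoding RNAs, 3 (9.09%) small RNA genes and 2 (6.06%) TEC, the GENCODE class of transcribed regions whose coding status is not settled. Among the 31614 rows listed at 0 without heat, 23.9% were protein coding, 20.3% processed pseudogenes, 22.0% long noncoding RNAs, 16.1% small RNA genes and 6.44% TEC. Other pseudogenes made up 9.73% of those rows and none of the 33 genes. Over all 54038 named rows, 40.5% were protein coding, 17.3% processed pseudogenes and 17.7% long noncoding RNAs. Small RNA genes were 11.2% of all named rows, TEC 5.82% and other pseudogenes 6.47%. The protein coding share of the 33 was thus nearer to that of all named rows than to that of the rows listed at 0. No test was made of these shares. A further 38 loci assembled by the authors' software, which have no gene name, and 1 Ensembl row without a symbol met the same thresholds and are not among the 33.

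Over the 33 genes, the median of the group means was 0.123 FPKM in heated YAP/TAZ cells, 0 in unheated YAP/TAZ cells and 1.47 FPKM in heated control cells. The highest mean was 2.23, 0.137 and 8.86 FPKM in the same groups. Summed over the 33 genes, the levels were 8.14, 8.09 and 7.57 FPKM in the heated YAP/TAZ libraries, 0.483, 0.297 and 0.117 FPKM in the unheated YAP/TAZ libraries, and 74.7 and 68.3 FPKM in the heated control libraries. In the sum the heated YAP/TAZ libraries did not overlap the unheated YAP/TAZ libraries. That they lay below the heated control libraries is a description, since those libraries chose the genes. The mean in heated YAP/TAZ cells was 0% to 51.4% of that in heated control cells, with a median of 7.95%, and 19 genes were under 10%.

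**Figure D1:**
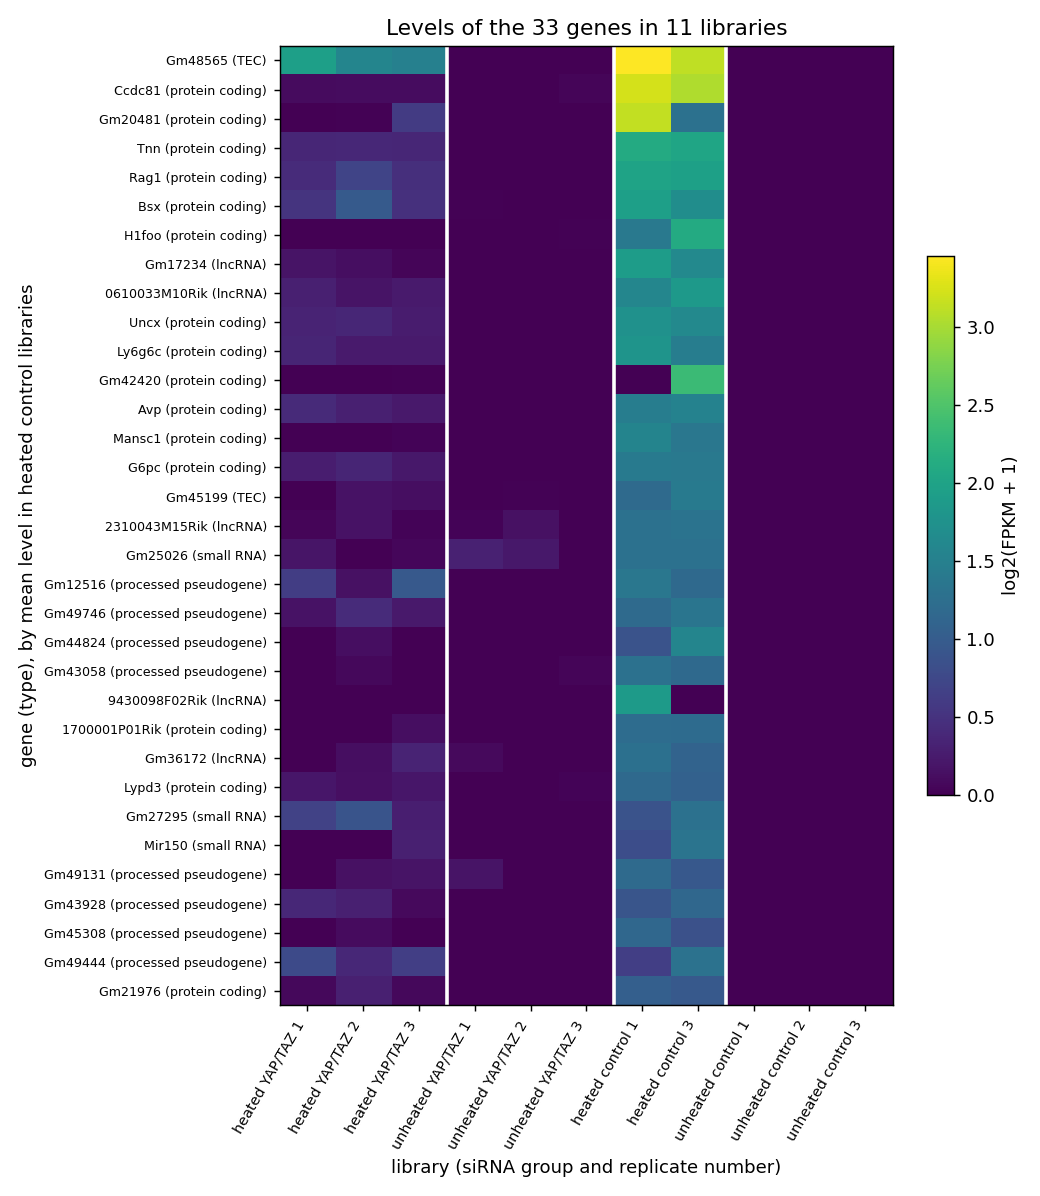
Level of each of the 33 genes (rows, ordered by the mean in heated control libraries, with the gene type) in each of the 11 libraries (columns), as log2(FPKM + 1) in colour. The heated control columns carry the signal that chose the genes, the heated YAP/TAZ columns are faint but above 0 for 20 genes in all 3 libraries, and the unheated control columns are 0 by the rule.

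Cells with the YAP/TAZ siRNA pool, which took no part in choosing the genes, had most of them above 0 after heat, at low levels. In heated YAP/TAZ cells 20 of the 33 genes (60.6%) were above 0 in all 3 libraries, 4 in 2 libraries, 7 in 1 library and 2 in none. Among all rows listed at 0 in unheated control cells, 1.58% were above 0 in all 3 heated YAP/TAZ libraries, and among the 1672 of those rows that were above 0 in both heated control libraries, 19.7% were. Counting detection in at least 1 heated YAP/TAZ library gave 31 of the 33 genes (93.9%), against 11.8% of the rows listed at 0, 65.6% of the 1672 rows above 0 in both heated control libraries and 85.3% of 68 rows just under the threshold, with heated control means of 0.5 to 1 FPKM. The 2 genes listed at 0 in all heated YAP/TAZ libraries were H1foo and the long noncoding RNA gene 9430098F02Rik. Values above 0 could be very low, down to 0.00460 FPKM for Gm20481. Above 0.1 FPKM in all 3 heated YAP/TAZ libraries were 14 of the 33. Leaving out genes that overlap an expressed gene, a count that was not planned, 17 were above 0 in all 3. The shares of all rows were not computed for these counts.

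Without heat, YAP/TAZ cells showed 0 of the 33 genes in all 3 libraries, where the share of rows listed at 0 was 0.55%, and 11 (33.3%) in at least 1 library, where that share was 7.05%. Among the 1672 rows above 0 in both heated control libraries, 3.77% were above 0 in all 3 unheated YAP/TAZ libraries and 30.6% in at least 1, and among the 68 rows just under the threshold 47.1% were above 0 in at least 1. Detection of the 33 genes without heat in at least 1 library was thus near that of the 1672 rows and below that of the 68 rows. The 1672 rows needed only a value above 0 after heat, so their levels were not matched to those of the 33. No value of the 33 genes in an unheated YAP/TAZ library exceeded 0.246 FPKM, the level of the small RNA gene Gm25026 in replicate 1. Leaving out unheated YAP/TAZ replicate 3 lowered the count of 11 to 7.

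**Figure D2:**
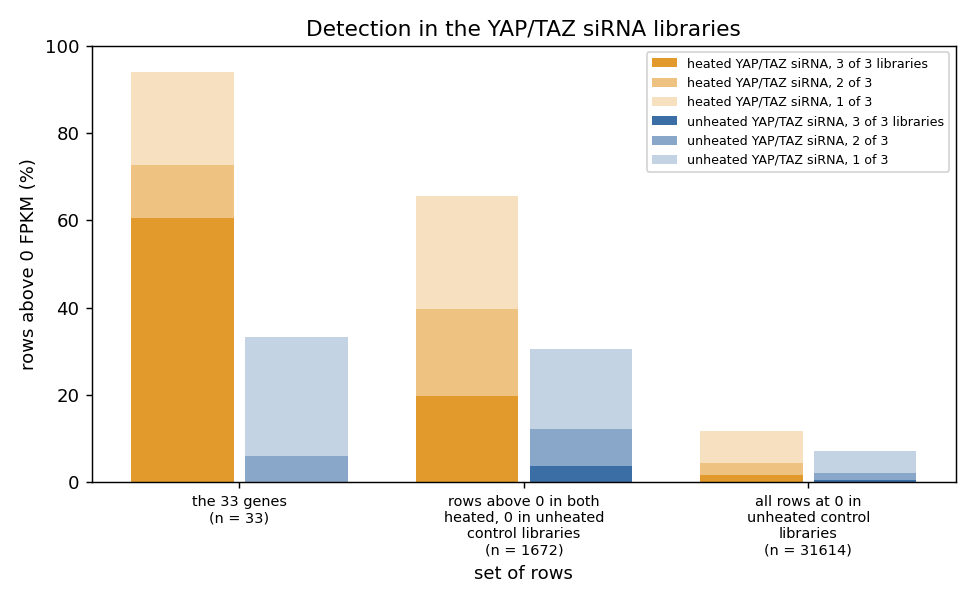
Share of rows above 0 FPKM (vertical axis, %) in 3, 2 or 1 of the 3 heated (left bar) and unheated (right bar) YAP/TAZ siRNA libraries, for the 33 genes, for 1672 rows above 0 in both heated and at 0 in all unheated control libraries, and for all 31614 rows at 0 in unheated control libraries. Of the 33 genes, 60.6% reached all 3 heated libraries and 0 reached all 3 unheated ones.

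In the YAP/TAZ arm, 19 of the 33 genes had every heated library above every unheated one, where 7.28% of all named rows and 1.23% of the rows listed at 0 in unheated control cells did so. Of those 31614 rows listed at 0, 27868 were at 0 in every heated YAP/TAZ library and could not meet this. The share was not computed for the 1672 rows or the 68 rows. Only the 20 genes above 0 in all 3 heated YAP/TAZ libraries could be among the 19, so the 2 counts are not separate results. The 19 were 11 protein coding genes, 4 processed pseudogenes, 2 long noncoding RNA genes, 1 small RNA gene and 1 TEC gene. The test of heat under YAP/TAZ siRNA, limma on log2(FPKM + 1) in those 6 libraries, covered 12035 genes with at least 1 FPKM in 2 libraries, of which 1938 rose (16.1%), 3441 fell and the median change was -0.09. Median-of-ratios scaling gave 2692 that rose and 2333 that fell, without heated YAP/TAZ replicate 1 the number that rose was 1279, and without unheated YAP/TAZ replicate 2 the number that fell was 2216. A single gene of the 33, Gm48565, passed that filter and rose, but it passed only through its heated libraries, so that it had to differ. The other 32 were below the filter. When genes above 0 in 2 libraries were admitted, 25 of the 33 entered and 14 rose, where 9.52% of 23426 genes did. Most of these also entered through their heated libraries alone, so nothing is read from that count. With a pseudocount of 0.1 as well, a setting added after the data had been seen, 17 rose, where 10.1% of genes did. The same 25 genes entered there, so nothing is read from this count either.

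The heat response itself was present in the YAP/TAZ cells. Of 24 heat-inducible chaperone, ubiquitin and immediate early genes, all tested in the same limma fit, 22 rose, 0 fell and 2 were not called, with a median log2 change of 0.95 against -0.09 over all genes. Hspb1, which encodes the small chaperone Hsp25, was at 182, 232 and 112 FPKM in heated and 10.2, 10.0 and 13.6 FPKM in unheated YAP/TAZ libraries, and at 3296 and 3321 FPKM in heated and 11.9, 16.1 and 16.0 FPKM in unheated control libraries. Heated YAP/TAZ libraries were thus far above the unheated ones and far below the heated control libraries. Under YAP/TAZ siRNA it rose by 3.79 ± 0.27 (log2 change ± SE, adjusted p = 0.00060 by limma with Benjamini-Hochberg adjustment).

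After heat, 29 of the 33 genes had every YAP/TAZ library below both control libraries, where 11.7% of all named rows did, and 4 overlapped. The heated control libraries chose the genes, so nothing is read from this count. Under control siRNA, 31 of the 33 genes were above 0 in both heated libraries, where 12.2% of all named rows were higher without overlap, and 2 were above 0 in 1 library only. The rule used this same contrast, so nothing is read from the count of 31 either. In the 31 genes the higher of the 2 heated control values was 1.01 to 5.42 times the lower, with a median of 1.26, and 25 were within 1.5 times.

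**Figure D3:**
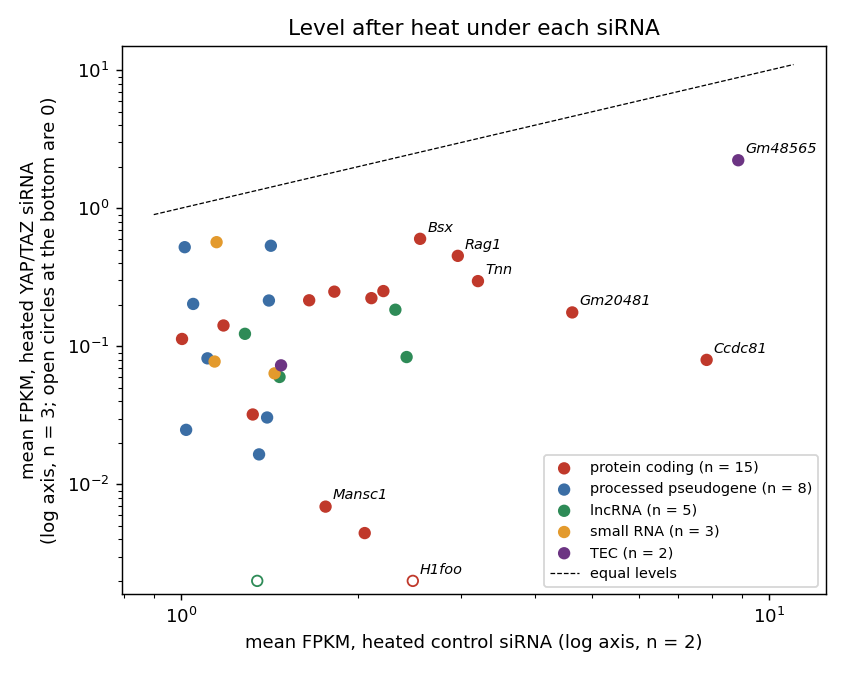
Mean level of each of the 33 genes after heat under YAP/TAZ siRNA (vertical, 3 libraries) against that under control siRNA (horizontal, 2 libraries), in FPKM on log axes, coloured by gene type, with a dashed line of equal levels. All 33 genes lie under the line, from Gm48565 at 2.23 and 8.86 FPKM to H1foo, listed at 0 under YAP/TAZ siRNA.

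The highest of the 33 was Gm48565, a TEC gene of 1 exon and 1705 bases (ENSMUSG00000110982, chromosome 9, 40820969 to 40822673, plus strand, GRCm38). It was at 2.86, 1.98 and 1.84 FPKM in heated YAP/TAZ libraries, listed at 0 in the unheated ones, and at 9.98 and 7.75 FPKM in heated control libraries. It was the 1 gene with a mean of at least 1 FPKM in heated YAP/TAZ cells, all heated YAP/TAZ values lay above the unheated ones and below both heated control values. The log2 change with heat under YAP/TAZ siRNA was 1.68 ± 0.13 (SE, adjusted p = 0.00070, limma), or 4.52 with a pseudocount of 0.1 in place of 1, a description, since the gene entered the test only through its heated libraries. It starts 10.9 kb after the end of Hspa8, the constitutive Hsp70 chaperone, on the same strand.

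Bsx, a homeobox transcription factor of the hypothalamus and pineal gland, is the next gene on that strand (ENSMUSG00000054360, chromosome 9, 40874127 to 40880057), 64.0 kb after the end of Hspa8. It was at 0.434, 0.978 and 0.391 FPKM in heated YAP/TAZ libraries, at 0.0163 FPKM in 1 unheated YAP/TAZ library and 0 in the others, and at 2.87 and 2.23 FPKM in heated control libraries. Its heated YAP/TAZ values were 23.5% of the heated control mean, above every unheated value and below both heated control values. Hspa8 itself was at 474, 449 and 488 FPKM in heated and 296, 284 and 297 FPKM in unheated YAP/TAZ libraries, and at 529 and 516 FPKM in heated and 489, 505 and 516 FPKM in unheated control libraries. In control cells the heated Hspa8 mean was 1.04 times the unheated one. Gm48565 and Bsx were there above 2 FPKM in both heated libraries and, by the rule, listed at 0 in the unheated ones. Under YAP/TAZ siRNA Hspa8 rose with heat by 0.68 ± 0.05 (log2 change ± SE, adjusted p = 0.00070, limma). Whether Hspa8 took part in the levels of Gm48565 and Bsx was not tested.

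Some neighbours of Hspa8 outside the 33 were looked up after their values had been seen. Jhy, which lies beyond Bsx on the opposite strand, was at 0.137, 0.163 and 0.112 FPKM in heated YAP/TAZ libraries and 0.0907 and 0.0840 FPKM in heated control libraries, and was listed at 0 in every unheated library. Clmp, upstream of Hspa8, did not exceed 0.0135 FPKM in any library. In every heated library Bsx was lower than Gm48565 and Jhy lower than Bsx. These are levels of different genes, Jhy was picked after its values were seen, and it lies on the opposite strand. Jhy was also higher in heated YAP/TAZ than in heated control cells, unlike Gm48565 and Bsx. No order by distance from Hspa8 is therefore read, and a part of distance was not tested. Near Hspa1a, 1110038B12Rik, 16.7 kb past its end, averaged 79.0 FPKM in heated YAP/TAZ cells and 127 FPKM in heated control cells. The nearer Gm8696 averaged 35.5 and 98.7 FPKM. Hspa1b, at means of 120 and 1045 FPKM in these groups, lies between Hspa1a and both genes on the same strand. Without heat 1110038B12Rik averaged 11.2 FPKM in YAP/TAZ and 15.8 FPKM in control cells. No order by distance from Hspa1a can therefore be read from these genes either.

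**Figure D4:**
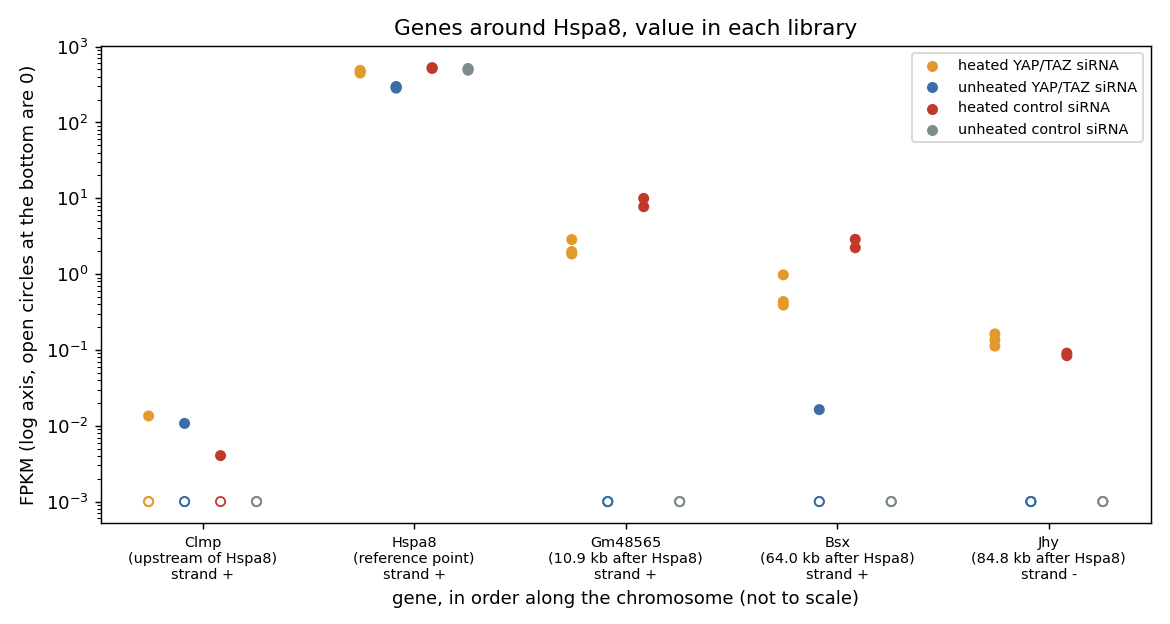
FPKM (log axis) of 5 genes in their order along the chromosome around Hspa8, each point 1 library, with heated YAP/TAZ, unheated YAP/TAZ, heated control and unheated control libraries from left to right at each gene and open circles for 0. Gm48565, Bsx and Jhy are above 0 in all heated libraries and, apart from 1 Bsx value of 0.0163, at 0 in the unheated ones.

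Rag1 encodes a subunit of the recombinase that cuts antigen receptor genes in developing lymphocytes (ENSMUSG00000061311, chromosome 2, 101638282 to 101649501, minus strand). It was at 0.347, 0.631 and 0.379 FPKM in heated YAP/TAZ libraries, at 0.00706 FPKM in 1 unheated YAP/TAZ library and 0 in the others, and at 3.03 and 2.89 FPKM in heated control libraries. The heated YAP/TAZ values overlapped neither the unheated values nor the heated control values. Rag2, its partner gene, looked up after these values were seen, was listed at 0 in all libraries except for 0.00265 FPKM in heated YAP/TAZ replicate 3. The span of Rag1 overlaps that of B230118H07Rik on the same strand, whose group means were 4.24, 4.73, 2.22 and 4.54 FPKM in heated YAP/TAZ, unheated YAP/TAZ, heated control and unheated control cells.

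Among lymphocyte markers, Cd79a, a subunit of the B cell receptor, was also highest in heated control libraries. Of 6 lymphocyte markers, 3, 5, 2 and 5 were at 0 in every library of the heated YAP/TAZ, unheated YAP/TAZ, heated control and unheated control groups, with Ptprc and Cd8a at 0 throughout. Their summed level was 0.143 to 0.314 FPKM in heated YAP/TAZ, 0 to 0.182 FPKM in unheated YAP/TAZ, 1.84 to 1.87 FPKM in heated control and 0.125 to 0.306 FPKM in unheated control libraries, and Cd79a carried 1.85 FPKM of the heated control mean. The sum of 6 macrophage markers, led by Cd68 and Lyz2, was 2.83 to 3.42 FPKM in heated YAP/TAZ, 1.57 to 2.05 FPKM in unheated YAP/TAZ, 6.29 to 6.73 FPKM in heated control and 2.34 to 2.64 FPKM in unheated control libraries, with Itgam at 0 in all unheated libraries and Adgre1 in heated control ones. The sum of 4 endothelial markers, led by Pecam1 and with Cdh5 at 0 throughout, was 0.0645 to 0.135 FPKM in heated YAP/TAZ, 0.0145 to 0.0208 FPKM in unheated YAP/TAZ, 0.995 to 1.15 FPKM in heated control and 0.00348 to 0.0592 FPKM in unheated control libraries. The sum of 6 fibroblast markers was 1.02 to 1.04, 1.44 to 1.63, 1.46 to 1.48 and 2.87 to 3.16 FPKM in the same order, lower in heated than in unheated libraries, with Dcn at 0 throughout. Their part in the levels of Rag1 and the other genes was not tested.

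RefSeq promoter windows, 250 bases before to 50 after the start on GRCm38.p6, were at hand for 9 of the 33 genes, and 1 of the 9, Rag1, held a pair of heat shock units, TTCNNGAA. GAANNTTC or TTCNNGAA, each of which reads the same on both strands, stood in 15.1% of 32851 such windows, and the forms with 3 units in a row, those letters followed by NNGAA or NNTTC, in 0.603% of windows and in 0 of the 9. A match is a description and not a site. The Rag1 window is shown beside that of Hspb1, a textbook heat shock gene with a pair of matches, 5′ to 3′ along each gene with the matches in capitals. Counted from the RefSeq start, they begin at -147 in Rag1, and at -117 and -97 in Hspb1. The RefSeq start of Rag1, 101649532, lies upstream of the GENCODE start given above, and is also the GENCODE start of B230118H07Rik.
Rag1, chr2:101649483-101649782, minus strand: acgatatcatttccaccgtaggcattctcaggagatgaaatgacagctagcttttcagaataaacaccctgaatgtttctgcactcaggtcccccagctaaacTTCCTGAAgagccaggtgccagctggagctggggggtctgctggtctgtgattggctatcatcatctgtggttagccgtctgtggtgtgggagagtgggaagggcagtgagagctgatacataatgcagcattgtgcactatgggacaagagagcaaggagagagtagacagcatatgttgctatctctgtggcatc
Hspb1, chr5:135887669-135887968, plus strand: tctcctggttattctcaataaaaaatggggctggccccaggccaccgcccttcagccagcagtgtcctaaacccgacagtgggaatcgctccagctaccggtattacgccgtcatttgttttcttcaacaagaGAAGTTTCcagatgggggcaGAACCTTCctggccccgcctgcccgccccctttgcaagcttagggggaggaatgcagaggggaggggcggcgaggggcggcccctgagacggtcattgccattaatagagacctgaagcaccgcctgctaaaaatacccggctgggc

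Bsx, Uncx and Avp, also among the 9, held no such letters in their windows. Uncx, a homeobox transcription factor of the developing axial skeleton (ENSMUSG00000029546, chromosome 5, 139543494 to 139548179), was at 0.267, 0.290 and 0.198 FPKM in heated YAP/TAZ libraries, listed at 0 in the unheated ones, and at 2.35 and 2.07 FPKM in heated control libraries. It lies 2.16 kb after 4930500L23Rik, which averaged 0.554 FPKM in heated and 0.104 FPKM in unheated YAP/TAZ cells, and 1.58 FPKM in heated and 0.135 FPKM in unheated control cells. For both genes the heated means were above the unheated ones under either siRNA, and the heated Uncx libraries of either siRNA overlapped neither each other nor the unheated ones.

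Avp encodes the precursor of vasopressin, the water-retaining hormone of hypothalamic neurons (ENSMUSG00000037727, chromosome 2, 130580620 to 130582554). It was at 0.332, 0.232 and 0.183 FPKM in heated YAP/TAZ libraries, listed at 0 in the unheated ones, and at 1.77 and 1.88 FPKM in heated control libraries. Oxt, the neighbouring oxytocin gene, looked up after the Avp values were seen, was at 0.253, 0.371 and 0.292 FPKM in heated YAP/TAZ libraries and 1.13 and 0.435 FPKM in heated control libraries, and was listed at 0 in all unheated libraries. The genes share 17.7% of the 31-base words of Avp, which limits how well they can be told apart, and Avp lies 7.45 kb after Ubox5 on its strand. Of 4 neuron markers, Snap25 and Syt1 were at 0 in every library, and Tubb3 made up nearly all of the sum, with means of 199, 172, 37.7 and 87.5 FPKM in heated YAP/TAZ, unheated YAP/TAZ, heated control and unheated control cells. The part of such cells in the Avp level was not tested.

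Ccdc81, a coiled-coil domain gene of 16 exons (ENSMUSG00000039391, chromosome 7, 89866148 to 89903629, minus strand), had the second highest level of the 33 in heated control cells. It was at 0.0712, 0.0856 and 0.0825 FPKM in heated YAP/TAZ libraries, at 0.0356 FPKM in 1 unheated YAP/TAZ library and 0 in the others, and at 8.42 and 7.24 FPKM in heated control libraries. Heated YAP/TAZ cells were therefore at 1.02% of the heated control mean, against 25.2% for Gm48565, although all 3 heated YAP/TAZ values still lay above the unheated ones. Ccdc81 starts 13.9 kb after Hikeshi, the carrier that brings Hsp70 into the nucleus after heat, which averaged 4.08 FPKM in heated and 3.07 FPKM in unheated YAP/TAZ cells, and 5.56 FPKM in heated and 4.11 FPKM in unheated control cells.

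Tnn encodes tenascin-N, a glycoprotein of the extracellular matrix (ENSMUSG00000026725, chromosome 1, 160085029 to 160153580, minus strand, 22 exons). It was at 0.293, 0.303 and 0.295 FPKM in heated YAP/TAZ libraries, listed at 0 in the unheated ones, and at 3.32 and 3.08 FPKM in heated control libraries. Replicates lay close together in both heated groups, which did not overlap. Its start is 48.8 kb after the end of Cacybp, near the limit of 50 kb used for neighbours.

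G6pc, the liver enzyme of the last step of gluconeogenesis (ENSMUSG00000078650, chromosome 11, 101367561 to 101377903), was at 0.208, 0.276 and 0.163 FPKM in heated YAP/TAZ libraries, listed at 0 in the unheated ones, and at 1.68 and 1.62 FPKM in heated control libraries. Ly6g6c, a surface protein of the Ly6 family (ENSMUSG00000092586, chromosome 17, 35065388 to 35070050), was at 0.284, 0.194 and 0.193 FPKM, 0, and 2.45 and 1.77 FPKM in the same groups. Lypd3, another member of that family (ENSMUSG00000057454, chromosome 7, 24636550 to 24641118), was at 0.161, 0.108 and 0.156 FPKM in heated YAP/TAZ libraries, at 0.0284 FPKM in 1 unheated YAP/TAZ library, and at 1.26 and 1.11 FPKM in heated control libraries. In each of these genes the heated YAP/TAZ libraries overlapped neither the unheated ones nor the heated control ones, and the heated YAP/TAZ means were 13.0%, 10.6% and 12.0% of the heated control means. Expressed genes ended 25.6, 3.29 and 7.25 kb upstream of them on the same strand, namely Aoc3, Ddah2 and Phldb3.

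H1foo, Mansc1, 1700001P01Rik and the predicted gene Gm42420 were listed at 0 in at least 2 of the 3 heated YAP/TAZ libraries. H1foo, the linker histone of oocytes (ENSMUSG00000042279, chromosome 6, 115944938 to 115950236), was listed at 0 in all heated YAP/TAZ libraries, at 0.0154 FPKM in 1 unheated YAP/TAZ library, and at 1.63 and 3.33 FPKM in heated control libraries. Mansc1, a membrane protein gene (ENSMUSG00000032718, chromosome 6, 134609207 to 134632488), was at 0, 0 and 0.0207 FPKM in heated YAP/TAZ libraries, listed at 0 in the unheated ones, and at 1.94 and 1.59 FPKM in heated control libraries. 1700001P01Rik (ENSMUSG00000018543, chromosome 11, 97771481 to 97775918) was at 0, 0 and 0.0963 FPKM, 0, and 1.34 and 1.31 FPKM in the same groups. For H1foo, Mansc1 and 1700001P01Rik the heated and unheated YAP/TAZ values overlapped, and the heated control values stood clear of both. Of 6 germ line and testis markers, 3 in heated YAP/TAZ, 3 in unheated YAP/TAZ, 4 in heated control and 4 in unheated control libraries were at 0 in every library of the group, among them Prm1, Prm2 and Tnp1 throughout. Their summed level was 0.0361 to 0.235 FPKM in heated YAP/TAZ, 0.268 to 0.396 FPKM in unheated YAP/TAZ, 0.137 to 0.168 FPKM in heated control and 0 to 0.262 FPKM in unheated control libraries.

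**Figure D5:**
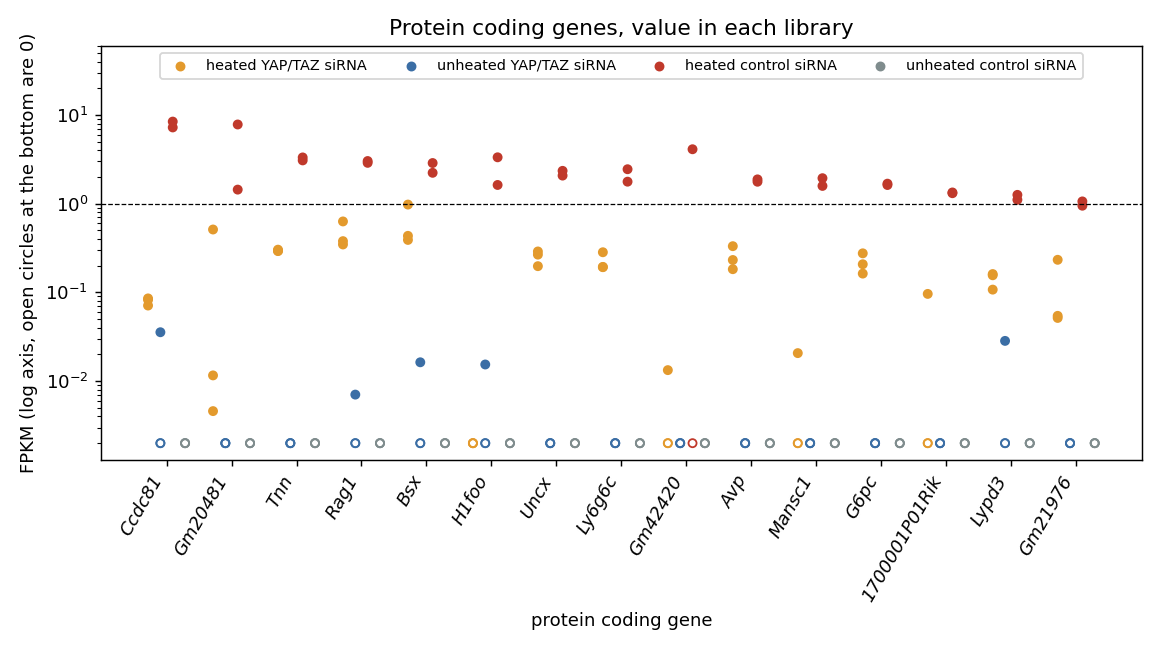
FPKM (log axis) of the 15 protein coding genes in each library, with heated YAP/TAZ, unheated YAP/TAZ, heated control and unheated control libraries from left to right at each gene, open circles for 0 and a dashed line at the threshold of 1 FPKM. For 11 of the 15 genes every heated YAP/TAZ value is above every unheated YAP/TAZ value, and no heated YAP/TAZ value reaches 1 FPKM.

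Gm20481, Gm42420 and Gm21976 are predicted genes without an established role. Gm20481 (ENSMUSG00000092609, chromosome 17, 34969912 to 34972136, plus strand) lies within the span of the inducible Hsp70 gene Hspa1a on the opposite strand, and 95.5% of its 31-base words also occur in Hspa1a transcripts. It was at 0.00460, 0.0116 and 0.512 FPKM in heated YAP/TAZ libraries, listed at 0 in the unheated ones, and at 7.81 and 1.44 FPKM in heated control libraries, the widest spread between those libraries among genes above 0 in both. Hspa1a was at 96.4, 133 and 14.7 FPKM in heated and 1.08, 1.30 and 1.04 FPKM in unheated YAP/TAZ libraries, and at 1474 and 1358 FPKM in heated and 1.25, 1.22 and 1.26 FPKM in unheated control libraries. The strandedness of the counting is not given in the sources used here, so reads of Gm20481 and Hspa1a cannot be told apart.

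Gm42420 (ENSMUSG00000107071, chromosome 6, 39585753 to 39596595) overlaps Adck2 and Ndufb2 on the same strand and shares 90.7% of its 31-base words with other transcripts. It was at 0, 0 and 0.0133 FPKM in heated YAP/TAZ libraries, listed at 0 in the unheated ones, and at 0 and 4.11 FPKM in heated control libraries, so it was chosen on 1 library. The same held for 9430098F02Rik (ENSMUSG00000097605, chromosome 11, 52124530 to 52127779), at 2.70 and 0 FPKM in heated control libraries and at 0 in all YAP/TAZ libraries, which shares 99.3% of its 31-base words with Ppp2ca on the opposite strand. Gm21976 (ENSMUSG00000096330, chromosome 13, 98279887 to 98307154), the lowest of the 33, was at 0.0545, 0.233 and 0.0516 FPKM in heated YAP/TAZ libraries, listed at 0 in the unheated ones, and at 1.06 and 0.950 FPKM in heated control libraries. It shares no 31-base word with another gene, as did 16 of the 33 in all.

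Long noncoding RNA genes spanned 1.29 to 2.42 FPKM in heated control cells as group means, and 0 to 0.184 FPKM in heated YAP/TAZ cells. The highest were Gm17234 (ENSMUSG00000091283, chromosome 1, 57909835 to 57917111) and 0610033M10Rik (ENSMUSG00000108236, chromosome 6, 51400966 to 51402219). Gm17234 was at 0.130, 0.0902 and 0.0309 FPKM in heated YAP/TAZ libraries, listed at 0 in the unheated ones, and at 2.76 and 2.08 FPKM in heated control libraries. For 0610033M10Rik the values were 0.229, 0.130 and 0.194 FPKM in heated YAP/TAZ libraries, 0 in the unheated ones, and 2.00 and 2.63 FPKM in heated control libraries. In both genes the heated YAP/TAZ libraries stood clear of the unheated ones and of the heated control libraries.

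Of the 4 genes whose heated YAP/TAZ mean was above 25% of the heated control mean, Gm12516 and Gm49444 were processed pseudogenes, copies of spliced transcripts set back into the genome. Gm12516 (ENSMUSG00000084144, chromosome 4, 55392317 to 55392701) was at 0.540, 0.119 and 0.947 FPKM in heated YAP/TAZ libraries, listed at 0 in the unheated ones, and at 1.59 and 1.26 FPKM in heated control libraries. Gm49444 (ENSMUSG00000116516, chromosome 15, 81656185 to 81656399) was at 0.708, 0.304 and 0.556 FPKM, 0, and 0.557 and 1.47 FPKM in the same groups. Heated groups overlapped for Gm49444 and not for Gm12516, and both were above all unheated YAP/TAZ values. Over the 8 processed pseudogenes the transcripts were 215 to 625 bases long, so that the heated control means stood for 7.84 to 30.0 of the smallest steps, against 29.2 to 770 steps for protein coding genes. Gm45308 (ENSMUSG00000109663, chromosome 7, 46832464 to 46832878) was at 0, 0.0745 and 0 FPKM in heated YAP/TAZ libraries and 1.22 and 0.819 FPKM in heated control libraries, and shares 52.2% of its 31-base words with other transcripts.

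Small RNA genes stood on few steps, with 2.65 to 9.60 of the smallest steps in heated control cells. Gm27295, a small nucleolar RNA gene within the span of App on the opposite strand (ENSMUSG00000098604, chromosome 16, 85168849 to 85169001), was at 0.608, 0.871 and 0.226 FPKM in heated YAP/TAZ libraries, listed at 0 in the unheated ones, and at 0.851 and 1.45 FPKM in heated control libraries. Its heated groups overlapped. Mir150, the hairpin gene of a microRNA of mature lymphocytes (ENSMUSG00000065495, chromosome 7, 45121757 to 45121821), was at 0, 0 and 0.233 FPKM in heated YAP/TAZ libraries, listed at 0 in the unheated ones, and at 0.762 and 1.52 FPKM in heated control libraries, and the table does not separate mature from hairpin RNA. The RefSeq arm miR-150-3p of that hairpin is given with its seed, bases 2 to 8, in capitals. The seed shown is that of this arm only, and the other arm is not shown.
mmu-miR-150-3p, chr7:45121798-45121819, plus strand: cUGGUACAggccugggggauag

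By position, 24 of the 33 genes (72.7%) overlapped a gene with a mean of at least 1 FPKM in heated control cells or started within 50 kb after the end of one on the same strand. That held for 16.7% of the 31614 rows listed at 0 without heat and for 49.9% of the 1672 rows above 0 in both heated control libraries. Of the 24 genes, 3 overlapped such a gene on the same strand, 3 on the opposite strand, and 18 lay downstream. With a limit of 10 kb the count was 13, where 10.0% and 25.5% of the same rows met it. No test was made of these shares, and the heated control libraries used for the neighbours are those that chose the genes.

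The threshold of 1 FPKM cut a continuous range. Just inside it lay Gm45308, Gm49444 and Gm21976, with heated control means of 1.02, 1.02 and 1.01 FPKM, and just outside it 4930479D17Rik, Prss22 and Nlrp6, with 0.992, 0.989 and 0.975 FPKM. Prss22, a secreted serine protease, was at 0.202, 0.229 and 0.0216 FPKM in heated YAP/TAZ libraries and listed at 0 in the unheated ones. Nlrp6, an innate immune sensor, was at 0.0650, 0.101 and 0.0361 FPKM in heated YAP/TAZ libraries and at 0.00800 FPKM in 1 unheated YAP/TAZ library. Above 0 in all 3 heated YAP/TAZ libraries were 60.6% of the 33 genes, against 51.5% of the 68 rows with heated control means of 0.5 to 1 FPKM. In all 3 unheated YAP/TAZ libraries the shares were 0% of the 33 genes and 4.41% of those rows.

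The same rule applied to the YAP/TAZ arm, with a heated mean of at least 1 FPKM and 0 in its 3 unheated libraries, found 5 named rows against 33 in the control arm. The 2 lists shared 1 gene, Gm48565, which is 3.03% of the 33 and 20% of the 5. Gm8801, another of the 5, was at 4.07 and 3.61 FPKM in heated control libraries. It missed the 33 only through 0.0129 FPKM in unheated control replicate 1. Of the rest, Vaultrc5 was at 0.376 and 0.286 FPKM in heated control libraries, and Gm45717 and Gm49527 were listed at 0 there. These rows were named after their values were seen. The lists share no library.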

How the data were processed

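RNA sequencing values of 11 libraries were analysed as deposited. The authors deposited FPKM per gene in a single table of 54686 rows, with no read counts. Per the submitters' processing notes, StringTie, HISAT2, Trimmomatic 0.36, DESeq2 and SAMtools were used on GRCm38, without roles. Settings, annotation release and strandedness are not given in the sources here. Of 54104 Ensembl rows, 54038 matched a symbol. Types and positions came from GENCODE M21, and promoter and microRNA sequences from RefSeq GRCm38.p6.

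The 33 genes and all gene lists were chosen with earlier results of these data known. Detection means above 0 FPKM. Heat under YAP/TAZ siRNA was tested with limma 3.58.1 (R 4.3.3, empirical Bayes with trend) on log2(FPKM + 1) in the 6 YAP/TAZ libraries, for genes with at least 1 FPKM in 2 libraries, with Benjamini-Hochberg adjustment and a threshold of 0.05. Fold changes on that scale understate the change of low genes. Depth is not given. The smallest common step between FPKM values on 1 kb, sought within a fixed range, is a rough scale for low levels and no measure of depth.

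Per-library values are given for all protein coding genes, the 10 highest in heated control and the 10 highest in heated YAP/TAZ cells, every gene called, and the 3 genes on each side of the threshold. Other thresholds, filters, pseudocounts, scalings and libraries left out were tried. Shared sequence was measured as 31-base words found in transcripts of other genes. Tables were made with pandas 2.3.3 and numpy 2.4.6 in Python 3.11.15.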

Additional observations from a re-analysis of the deposited data

Results flagged for a closer look

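Loci assembled by the authors' software, which have no gene name and take no part in the comparisons, held 38 of 582 that had a mean of at least 1 FPKM in the heated control libraries and were listed at 0 in the 3 unheated ones. This was signal in rows outside the main measurement. Their heated control means were 1.00 to 10.5 FPKM, with a median of 1.49 FPKM, and 5 were at 0 in 1 of the 2 heated control libraries. Of the 38, 11 were above 0 in all 3 heated YAP/TAZ libraries, 15 in none, and 8 in any unheated YAP/TAZ library.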

How the results depend on the processing

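Of 81 alternatives to a count, 63 left it within 1.5 times its value and 18 moved it further. The Gm48565 log2 change kept its sign and stayed past the threshold in 13 alternatives, at 1.54 to 1.76 with a pseudocount of 1 and 4.52 with 0.1. Gm48565 was listed at 0 in the unheated YAP/TAZ libraries and entered only through heated ones, so it had to differ. The 13 alternatives are therefore a description and not a check of the call. Median-of-ratios scaling turned the balance over all genes to 2692 that rose and 2333 that fell, and the median change to 0.0039. The number of genes chosen was 101 with a threshold of 0.5 FPKM, 12 with 2 FPKM, 60 when up to 0.05 FPKM was allowed in unheated control libraries, and 36 to 46 when a library was left out, of which 27 to 33 were among the 33. Genes that rose with heat under YAP/TAZ siRNA numbered 14 with genes above 0 FPKM in 2 libraries admitted, 0 with a filter of 5 FPKM (which none passed), 12 with all 11 libraries in the fit (18.6% of all genes there, with 23 of the 33 tested, which passed the filter through the heated control libraries that chose them, apart from Gm48565), and 17 with genes above 0 and a pseudocount of 0.1 together, chosen after seeing the data. Nothing is read from the counts of 14 and 17, since most of those genes entered through their heated libraries alone. Over all genes, leaving out a library gave 1279 to 1987 that rose and 2216 to 3317 that fell, and a filter of 5 FPKM gave 2192 that fell. In heated YAP/TAZ cells 14 genes were above 0.1 FPKM and 1 gene was at 1 FPKM or more in all 3 libraries. There 17 were above 0 in all 3 without genes that overlap an expressed gene, and 20 to 23 were above 0 in all libraries when 1 was left out. In unheated YAP/TAZ cells 3 were above 0.1 FPKM in any library, 0 at 1 FPKM, and 7 to 9 above 0 when 1 library was left out. The rule in the YAP/TAZ arm gave 20 rows at 0.5 FPKM and 6 to 8 when a library was left out, 8 of them without unheated replicate 1 and 8 without replicate 2. An upstream window of 10 kb gave 13 genes by position. The cause of these moves was not tested, beyond fewer genes tested or fewer libraries.

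Same-numbered heated and unheated YAP/TAZ libraries had correlations of deviations of -0.07, 0.13 and 0.14, and those with different numbers -0.19 to 0.08. With 3 libraries per group these values cannot settle whether the numbers pair them. With a replicate block, 1 of the 33 genes and 1928 genes in all rose and 3301 fell. Some short genes stood on few steps: 5 of the 33 were under 10 of the smallest steps in heated control cells.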

Other observations

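Gm45717 and Gm49527, found by the rule applied to the YAP/TAZ arm, had values that differed between libraries of 1 group. Gm45717 was at 0.748, 114 and 142 FPKM in heated YAP/TAZ libraries, listed at 0 in the unheated ones and in heated control libraries, and at 0, 0.553 and 0.310 FPKM in unheated control libraries. Gm49527 was at 0.00515, 3.92 and 4.05 FPKM in heated YAP/TAZ libraries and listed at 0 in all other libraries. In both, heated replicate 1 stood apart from the other libraries of its group. These genes were named after their values were seen.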
